A study of Mus musculus with 10 samples.

Results

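The Atf4 amino acid and stress program was taken as 36 listed genes, which comprise Atf4 and the transcription factors around it, feedback and stress outputs, amino acid transporters, enzymes of serine and one-carbon metabolism, and other enzymes of amino acid supply. They were found by an exact match of the gene symbol in the deposited expression table, which has 23479 gene entries. All 36 were present. Of these, 35 had a mean of at least 10 normalized reads and entered the test together with the other expressed genes, 12299 in all. The remaining gene, Cbs, lay between 0 and 10.6 normalized reads and was not tested.

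Atf4 is the main effector of the integrated stress response. When amino acids run short, or when unfolded protein, heme deficiency or viral RNA activates an eIF2 kinase, eIF2 is phosphorylated, general translation slows, and the Atf4 mRNA is translated better because of short upstream reading frames in its leader. Atf4 protein then pairs with C/EBP family members on composite elements near genes for amino acid import, amino acid synthesis and tRNA charging, and with lasting stress it also turns on Ddit3 (CHOP) and genes that feed back on the response. Since Atf4 is controlled largely at translation, its mRNA level and the level of its protein need not move together, and only mRNA was measured here.

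RNA sequencing was done on clone 4T1-T, a single-cell-derived clone of the mouse mammary carcinoma line 4T1, so that all groups come from 1 clone. The series concerns tumour heterogeneity, vascular mimicry and metastasis. Each group carried 1 short hairpin RNA, and each had 2 libraries, named A and B. The groups were shSerpine2-1 and shSerpine2-2, with hairpins against Serpine2, a secreted inhibitor of serine proteases; shSlpi-1 and shSlpi-2, with hairpins against Slpi, a secreted inhibitor of leukocyte elastase; and shRenilla, the control, whose hairpin targets a luciferase that mouse cells do not have. All groups were cultured alike in high-glucose DMEM with 5% fetal bovine serum, 5% fetal calf serum, antibiotics and added non-essential amino acids, a supplement that contains serine, glycine, asparagine, alanine and proline. Whether A and B were grown or extracted apart is not stated in the labels. The p-values therefore rest on library-to-library spread, some or all of which may be technical.

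Depth was 15877431 to 24026620 reads per library. Serpine2 had a log2 fold change against shRenilla of -4.57 with shSerpine2-1 and -2.67 with shSerpine2-2, and Slpi one of -3.09 with shSlpi-1 and -4.18 with shSlpi-2. The lines were not selective for 1 target: Slpi was also lower with shSerpine2-1 (-1.76), and Serpine2 was lower with the Slpi hairpins (mean -1.11). The shSlpi-2 libraries stood apart. Their A and B libraries differed most from each other (chi-square per degree of freedom 9.66, against 1.51 to 2.64 in the other groups), and the ribosomal RNA precursor Rn45s took 6.88% and 6.91% of their reads, against 1.00% and 1.21% in shRenilla. Other groups differed too in how many gene entries had 0 reads. These numbered 7439 to 8090 in the shRenilla and shSerpine2-2 libraries, 5113 to 5778 with shSerpine2-1 and shSlpi-1, and 3226 to 3541 with shSlpi-2. The epithelial markers of the labelled carcinoma were abundant, with a sum over 12 genes of 22620 to 33864 normalized reads per library, highest in shSlpi-2 and lowest in shRenilla; of 11 of them tested, 7 rose with Serpine2 lowered and 11 with Slpi lowered, against 10.7% and 16.5% of all genes. Sums over 9 leukocyte markers (138 to 183) and 7 endothelial markers (31.6 to 151, highest in shSlpi-2) were low, with Ptprc at 0 to 7.06 and Pecam1 at 1.76 to 31.2. Only 1 marker of each of these sets was tested. With shSlpi-2 the leukocyte one fell (-0.44) and the endothelial one rose (1.01), where 21.9% of all genes fell and 20.4% rose. The 8 fibroblast markers summed to 469 to 905, nearly all of it Pdgfra, and were highest in shRenilla. The part of these differences in the results below was not tested. In bulk RNA, fewer cells that express a gene and less of its RNA per cell cannot be told apart.

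The core of the C/EBP-ATF response element, to which Atf4 and its partners are known to bind, was searched for in the promoters of the members, because Atf4 is known to act through it. The letters searched were TGATGNAA on the gene's strand and TTNCATCA, the same element read from the other strand, in windows of 300 bases (250 before and 50 after an annotated start, RefSeq, GRCm38.p6). Of the 36 members, 30 had a window, and 9 of these (30.0%) held the element, against 4.51% of 27025 genes and 3.97% of 32851 windows in the same table. The members were listed as genes of the Atf4 program, so a higher share may come from that choice. It is not a result of these samples. No window was used for Eif4ebp1, Slc7a5, Slc7a3, Slc1a5, Aldh1l2 and Cth. Slc7a11 held it 2 times, on opposite strands, and the other 8 genes held it 1 time. The stretches around the match are shown for the 8 of these genes whose transcript differed in at least 1 comparison below. They are written on the gene's strand, with the element in capitals and all else in lower case.
Slc7a11, chr3:50443593-50443739, minus strand: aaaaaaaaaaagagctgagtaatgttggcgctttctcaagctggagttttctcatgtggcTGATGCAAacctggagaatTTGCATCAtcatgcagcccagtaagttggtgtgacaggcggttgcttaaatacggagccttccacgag
Chac1, chr2:119350992-119351116, plus strand: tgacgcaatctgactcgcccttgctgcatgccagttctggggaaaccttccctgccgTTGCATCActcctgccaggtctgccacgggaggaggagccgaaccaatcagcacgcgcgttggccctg
Asns, chr6:7693165-7693292, minus strand: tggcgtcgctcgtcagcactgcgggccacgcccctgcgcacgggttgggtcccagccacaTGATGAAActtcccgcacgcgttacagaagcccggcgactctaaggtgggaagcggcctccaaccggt
Nupr1, chr7:126625513-126625640, minus strand: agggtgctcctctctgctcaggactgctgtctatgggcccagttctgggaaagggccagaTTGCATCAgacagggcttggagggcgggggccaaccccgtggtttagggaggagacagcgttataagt
Jdp2, chr12:85599323-85599450, plus strand: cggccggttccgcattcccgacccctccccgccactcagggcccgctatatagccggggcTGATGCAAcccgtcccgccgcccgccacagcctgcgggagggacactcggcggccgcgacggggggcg
Slc1a4, chr11:20332664-20332777, minus strand: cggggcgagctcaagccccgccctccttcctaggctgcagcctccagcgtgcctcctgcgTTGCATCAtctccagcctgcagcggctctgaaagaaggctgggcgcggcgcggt
Trib3, chr2:152344011-152344106, minus strand: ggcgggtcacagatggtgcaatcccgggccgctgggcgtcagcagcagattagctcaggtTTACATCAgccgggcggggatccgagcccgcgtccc
Atf3, chr1:191183376-191183503, minus strand: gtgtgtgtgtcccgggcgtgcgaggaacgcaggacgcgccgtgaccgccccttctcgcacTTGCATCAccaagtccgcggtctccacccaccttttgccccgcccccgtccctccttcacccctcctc

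In Slc7a11 the elements begin 66 and 47 bases before the annotated start. The Asns match begins 23 bases before the start. The matches of Slc1a4 and Trib3 lie at or after the annotated start, and the Jdp2 window belongs to one of 3 annotated starts. Pycr1, whose transcript is described below, was the ninth gene with a match. A match is only a run of letters, and no binding was measured in these samples.

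**Figure D1:**
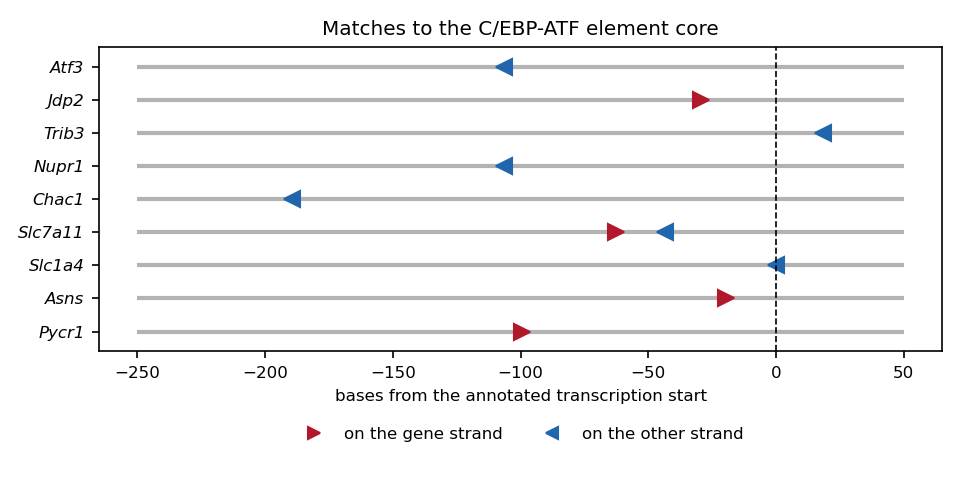
Position of each match to the C/EBP-ATF element core in the promoter windows of the 9 members that hold it. The x axis is the distance in bases from the annotated transcription start, grey lines are the 300-base windows, and arrowheads give the strand of the match; Slc7a11 has 2 matches on opposite strands, and the match of Trib3 lies after the start.

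In shRenilla cells the program was already expressed, over a wide range of levels. Per kilobase of exon (GENCODE M21, GRCm38), the highest mean levels in shRenilla were those of Slc38a2 (2688 normalized reads per kb), a sodium-coupled transporter of small neutral amino acids, Psat1 (2213) and Atf4 itself (1465), followed by Shmt2 (1170.0) and Slc7a5 (867). The lowest were those of Cbs (0.43), the cationic amino acid transporter Slc7a3 (5.97) and Pycr1 (11.7). Chac1 (188), Slc7a11 (42.1) and Trib3 (21.0), which are outputs of a strong stress response in many cells, were in the middle and lower part of the range. On that annotation Atf4 lies at chr15:80255184-80257541 on the plus strand, Slc38a2 at chr15:96687392-96699730 and Psat1 at chr19:15904678-15947337, both on the minus strand. Slc7a11 spans chr3:49892526-50443614, Asns chr6:7675169-7693254 and Mthfd2 chr6:83305691-83325908, all on the minus strand, and Gpt2 spans chr8:85492576-85527560 on the plus strand. No level per kb is given for Ddit3, whose symbol has more than 1 entry.

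With Serpine2 lowered, every member that passed the test was higher, and 15 of 35 did not pass. Of the 35 members tested, 20 rose and 0 fell, while 10.7% of all genes tested rose and 10.8% fell (mean of both Serpine2 hairpins against shRenilla, limma, Benjamini-Hochberg adjusted p under 0.05). The members were chosen with earlier results of these data known. The part of that choice in this and the later comparisons was not tested. The median log2 fold change of the members was 0.29, against -0.00 over all genes tested. In 21 members all 4 Serpine2 libraries lay above both shRenilla libraries, as did 18.8% of all genes tested, and in 0 members did all lie below. The largest rises were those of Slc7a11, Chac1, Gpt2, Mthfd2, Jdp2, Asns, Slc7a5 and Psph, each by more than 0.5 on the log2 scale. A count of 12 members was reached without shRenilla library B, and 12 of the 20 members kept their call whichever single library was left out. With each hairpin line as 1 unit, 0 members and 0 of all genes passed after adjustment, and 12 members had an unadjusted p under 0.05, all of them higher, against 4.06% of all genes.

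With Slpi lowered, fewer members changed. Of 35, 13 rose, 1 fell and 21 did not pass, while 16.5% of all genes tested rose and 18.3% fell, and the median log2 fold change of the members was 0.15, against -0.01 over all genes. In 15 members all 4 Slpi libraries lay above both shRenilla libraries and in 2 members below them, against 19.5% and 20.6% of all genes. All 13 members that rose with Slpi lowered also rose with Serpine2 lowered, but both comparisons use the same shRenilla libraries. Those 13 were Atf4, Jdp2, Nupr1, Chac1, Slc7a11, Slc7a5, Slc3a2, Slc7a1, Slc1a4, Psph, Mthfd2, Asns and Gpt2, and the member that fell was Cebpb. In 12 members all 8 knockdown libraries lay above both shRenilla libraries, as in 10.8% of all genes. Without shRenilla library B the count of changed members was 8 (all rises), and without both shSlpi-2 libraries 11 rose and 2 fell, with 10 of the 14 calls kept and those of Chac1, Slc7a1, Slc1a4 and Jdp2 lost. Of the 14 calls, 6 were kept whichever single library was left out. With hairpin lines as units 0 members and 0 genes passed, and 5 members had an unadjusted p under 0.05, all higher, against 10.4% of all genes.

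**Figure D2:**
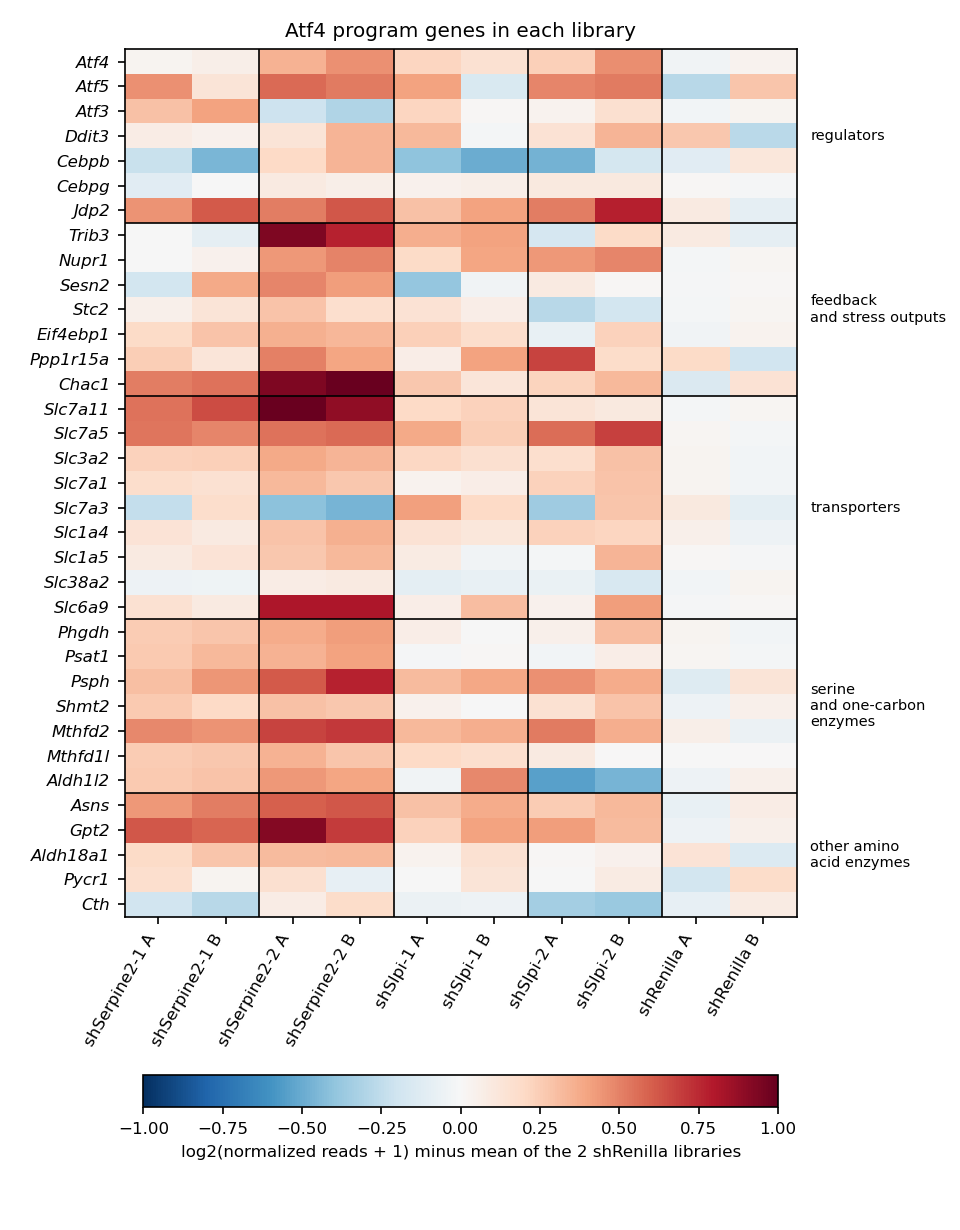
Each tested member (y axis, grouped by role) in each library (x axis), as log2(normalized reads + 1) minus the mean of the 2 shRenilla libraries; red is higher and blue is lower than shRenilla. The shSerpine2-2 columns are red for most members, and Cebpb is blue in both shSlpi-1 libraries.

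**Figure D3:**
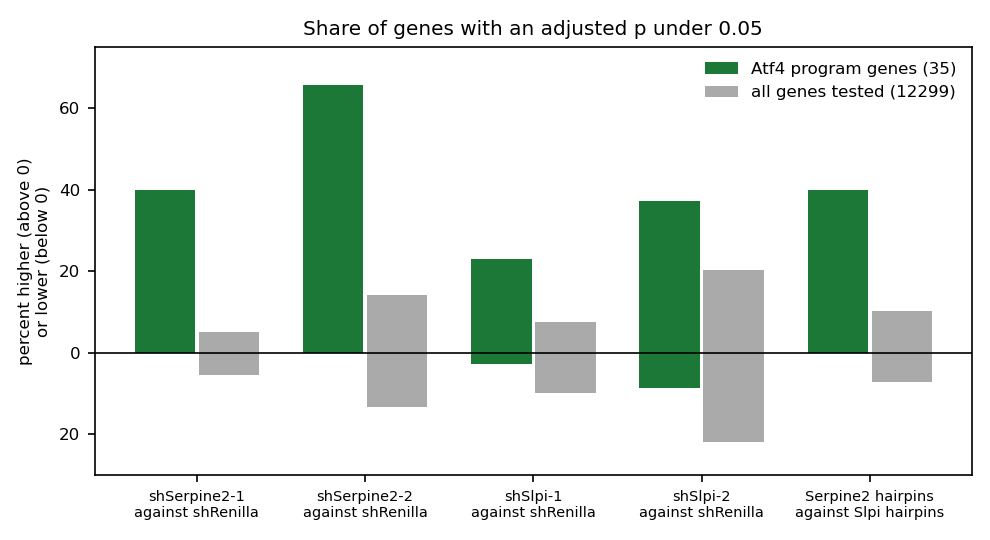
Percent of the 35 members (green) and of all 12299 genes tested (grey) with an adjusted p under 0.05, drawn above 0 for higher and below 0 for lower, in 4 single-hairpin comparisons with shRenilla and in Serpine2 hairpins against Slpi hairpins. For shSerpine2-2, 65.7% of members rose, against 14.2% of all genes; no member fell with either Serpine2 hairpin.

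Among the 7 regulators, 2 rose with Serpine2 lowered, Atf4 and Jdp2, and the same 2 rose with Slpi lowered, where Cebpb fell. Of all genes tested, 10.7% rose with Serpine2 lowered, and 16.5% rose and 18.3% fell with Slpi lowered. Atf4 had 3519 and 3589 normalized reads with shSerpine2-1, 4403 and 4730.2 with shSerpine2-2, 4013 and 3847 with shSlpi-1 and 4067 and 4776 with shSlpi-2, against 3363 and 3546 with shRenilla. The Atf4 mRNA was thus highest in both shSerpine2-2 libraries and in shSlpi-2 B. It was intermediate in shSlpi-2 A and both shSlpi-1 libraries, and near shRenilla in both shSerpine2-1 libraries. Its log2 fold change was 0.22 (SE 0.06, adjusted p = 0.0106) for the Serpine2 hairpins and 0.27 (SE 0.06, adjusted p = 0.00151) for the Slpi hairpins. Single hairpins gave 0.04 (shSerpine2-1, adjusted p = 0.751), 0.40 (shSerpine2-2, adjusted p = 0.000349), 0.19 (shSlpi-1, adjusted p = 0.0593) and 0.35 (shSlpi-2, adjusted p = 0.000396). The call of Atf4 with Serpine2 lowered was lost without shRenilla A (0.18, adjusted p = 0.137) and without shRenilla B (0.26, adjusted p = 0.0624).

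Jdp2 encodes a bZIP protein that dimerizes with Jun and represses AP-1 sites. Jdp2 had 149 and 167 normalized reads with shSerpine2-1, 155 and 168 with shSerpine2-2, 134 and 145 with shSlpi-1 and 156 and 187 with shSlpi-2, against 116 and 102 with shRenilla. All 8 knockdown libraries lay above both control libraries. The log2 fold change was 0.55 (SE 0.12, adjusted p = 0.00384) with Serpine2 lowered and 0.50 (SE 0.12, adjusted p = 0.00397) with Slpi lowered, and both calls were lost without shRenilla B (0.46, adjusted p = 0.0933, and 0.41, adjusted p = 0.0769), the Slpi call also without both shSlpi-2 libraries (0.35, adjusted p = 0.0522).

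Cebpb encodes a C/EBP protein with activating and inhibitory isoforms, and it followed another order. Cebpb had 145 and 123 normalized reads with shSerpine2-1, 195 and 214 with shSerpine2-2, 128 and 119.7 with shSlpi-1 and 122 and 149.6 with shSlpi-2, against 157 and 183 with shRenilla. The shSerpine2-2 libraries were the highest of all 10, while those of the other hairpins lay below both shRenilla libraries. The log2 fold change was -0.39 (SE 0.12, adjusted p = 0.0224) with Slpi lowered and -0.04 (SE 0.12, adjusted p = 0.868) with Serpine2 lowered, where the hairpins pointed in opposite directions (-0.34 with shSerpine2-1 and 0.27 with shSerpine2-2). The call with Slpi lowered was lost without shRenilla B (-0.28, adjusted p = 0.251) and without shSlpi-1 B (-0.36, adjusted p = 0.0563).

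Atf3, a stress-induced bZIP factor that often acts as a repressor, also split by Serpine2 hairpin. Atf3 had 165 and 178 normalized reads with shSerpine2-1, 116 and 109 with shSerpine2-2, 156 and 135 with shSlpi-1 and 137 and 149.6 with shSlpi-2, against 132 and 137 with shRenilla. It was highest in both shSerpine2-1 libraries and lowest in both shSerpine2-2 libraries, and neither hairpin passed against shRenilla (0.35, adjusted p = 0.104, and -0.25, adjusted p = 0.161). Ddit3 (CHOP), which promotes cell death in prolonged endoplasmic reticulum stress, was low throughout. Ddit3 had 53.5 and 52.2 normalized reads with shSerpine2-1, 55.3 and 64.3 with shSerpine2-2, 63.5 and 49.9 with shSlpi-1 and 56.1 and 64.4 with shSlpi-2, against 61.1 and 41.9 with shRenilla. Its groups overlapped, and its log2 fold changes were 0.15 (SE 0.19, adjusted p = 0.623) with Serpine2 lowered and 0.20 (SE 0.19, adjusted p = 0.45) with Slpi lowered. Atf5, a relative of Atf4 that is likewise controlled at translation, ranged over 61.1 to 111 normalized reads with fold changes of 0.42 (SE 0.18, adjusted p = 0.11) and 0.31 (SE 0.18, adjusted p = 0.196). Cebpg, a dimerization partner of Atf4, ranged over 1645 to 1901, with 0.01 (SE 0.05, adjusted p = 0.916) and 0.07 (SE 0.05, adjusted p = 0.25).

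Of the 7 feedback and stress outputs, 3 rose with Serpine2 lowered, Chac1, Eif4ebp1 and Nupr1, and 2 rose with Slpi lowered, Chac1 and Nupr1. The shares of all genes that rose were 10.7% and 16.5%. Chac1 encodes a cyclotransferase that degrades glutathione. Chac1 had 437 and 447 normalized reads with shSerpine2-1, 584 and 606 with shSerpine2-2, 368 and 332 with shSlpi-1 and 357 and 383 with shSlpi-2, against 277 and 337 with shRenilla. Every shSerpine2-2 library was above every shSerpine2-1 library, and these above all Slpi and shRenilla libraries. The log2 fold change was 0.74 (SE 0.09, adjusted p = 3.84e-05) with Serpine2 lowered, against 0.23 (SE 0.09, adjusted p = 0.0443) with Slpi lowered. The Slpi call of Chac1 was lost when any 1 of 7 libraries was left out and had its lowest value without shRenilla A (0.09, adjusted p = 0.539). It was also lost without both shSlpi-2 libraries (0.19, adjusted p = 0.116).

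Nupr1 encodes a small chromatin-associated protein induced by many stresses. Nupr1 had 259.5 and 268 normalized reads with shSerpine2-1, 353 and 369 with shSerpine2-2, 298 and 343 with shSlpi-1 and 353 and 365 with shSlpi-2, against 257 and 264 with shRenilla. It was high in the shSerpine2-2 and shSlpi-2 libraries and at the control level with shSerpine2-1. The fold change was 0.24 (SE 0.08, adjusted p = 0.047) with Serpine2 lowered, a call that was lost when any 1 of 6 libraries was left out (adjusted p up to 0.208, without shRenilla A), and 0.38 (SE 0.08, adjusted p = 0.00215) with Slpi lowered. Eif4ebp1 encodes an inhibitor of cap-dependent translation that mTORC1 switches off. Eif4ebp1 had 1268 and 1353 normalized reads with shSerpine2-1, 1423 and 1399.8 with shSerpine2-2, 1312 and 1255 with shSlpi-1 and 1056 and 1302 with shSlpi-2, against 1087 and 1138 with shRenilla. All Serpine2 libraries were above both shRenilla libraries, and the shSlpi-2 A library was below them. The fold changes were 0.29 (SE 0.07, adjusted p = 0.00698) and, with Slpi lowered, 0.14 (SE 0.07, adjusted p = 0.126); the call with Serpine2 lowered was lost without shRenilla A (0.26, adjusted p = 0.0957) and without shRenilla B (0.32, adjusted p = 0.0611).

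Trib3, a pseudokinase that is induced by Atf4 and CHOP and dampens Akt and Atf4 signalling, changed with 1 hairpin. Trib3 had 44.6 and 41.8 normalized reads with shSerpine2-1, 86.0 and 76.6 with shSerpine2-2, 57.5 and 59.3 with shSlpi-1 and 39.6 and 51.1 with shSlpi-2, against 47.4 and 41.9 with shRenilla. Both shSerpine2-2 libraries were above all others. Its log2 fold change was 0.85 (SE 0.20, adjusted p = 0.00516) with shSerpine2-2, -0.05 (SE 0.20, adjusted p = 0.922) with shSerpine2-1 and 0.40 (SE 0.17, adjusted p = 0.11) over both. The shSerpine2-2 call was lost without shRenilla B and without shSerpine2-2 A (adjusted p up to 0.0612). Stc2 encodes a secreted glycoprotein hormone. Stc2 had 491 and 517 normalized reads with shSerpine2-1, 575 and 532 with shSerpine2-2, 522 and 495 with shSlpi-1 and 389.5 and 417 with shSlpi-2, against 467 and 479 with shRenilla. It rose with shSerpine2-2 (0.23, SE 0.08, adjusted p = 0.046) and fell with shSlpi-2 (-0.23, SE 0.08, adjusted p = 0.0286). The first call was lost under 12 of 20 alternatives (adjusted p up to 0.288), among them quantile normalization, library totals and the removal of any 1 of 8 libraries, and the second under 4 of 20 (up to 0.131), among them the removal of either shRenilla library. Sesn2, a leucine sensor that restrains mTORC1, ranged over 66.5 to 123 normalized reads (0.28, SE 0.16, adjusted p = 0.239 and, with Slpi lowered, -0.08, SE 0.16, adjusted p = 0.741). Ppp1r15a (GADD34), the phosphatase subunit that resets eIF2, ranged over 60.6 to 111 (0.32, SE 0.17, adjusted p = 0.204 and, with Slpi lowered, 0.33, SE 0.17, adjusted p = 0.148).

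**Figure D4:**
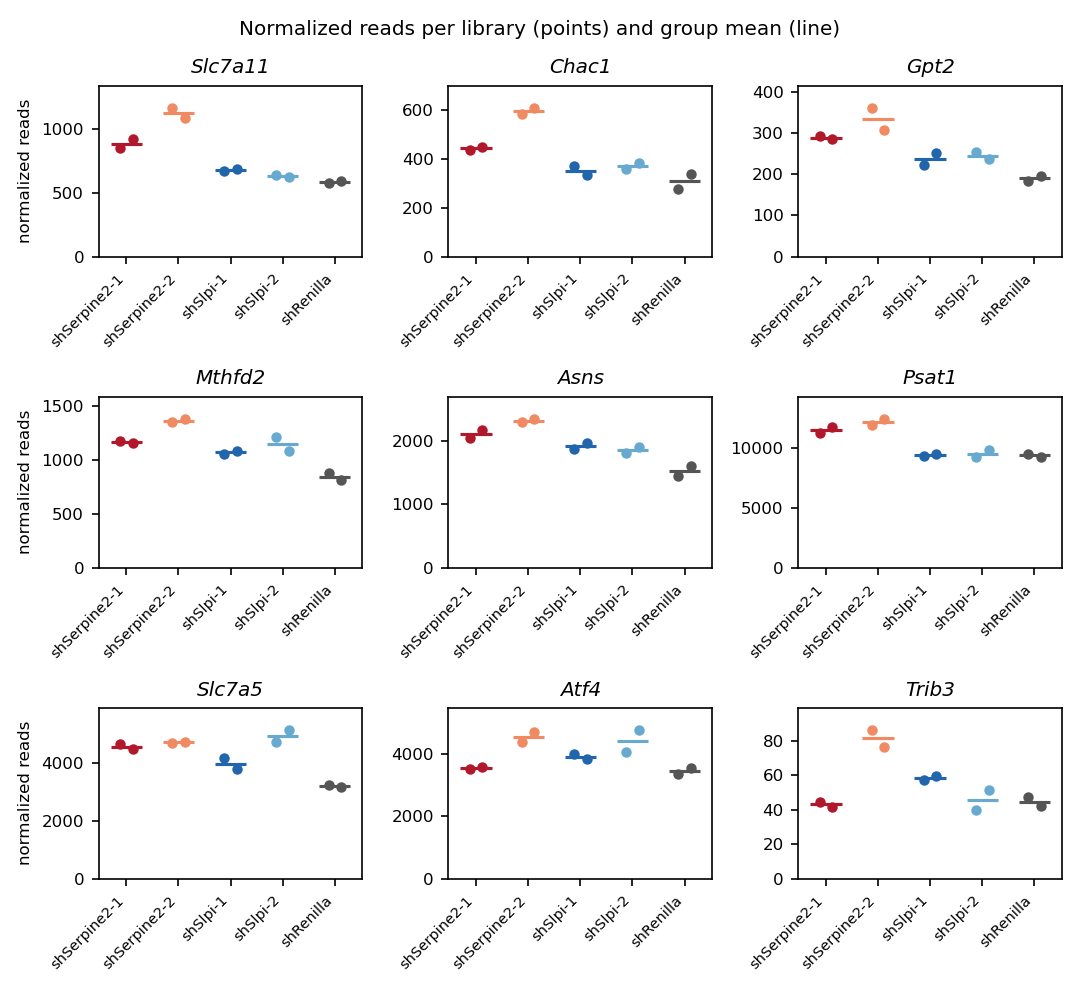
Normalized reads (y axes, starting at 0) of 9 members in each library (points), by hairpin (x axes), with the group mean as a line; each group has 2 libraries. Psat1 is higher in both Serpine2 lines than in every other library, whereas Slc7a5 is lowest in shRenilla, and Atf4 and Trib3 are near shRenilla with shSerpine2-1.

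Of the 9 transporters, 6 rose with Serpine2 lowered and 5 with Slpi lowered, and 0 fell in either comparison. Among all genes tested, 10.7% and 16.5% rose, and 10.8% and 18.3% fell. Slc7a11 (xCT) imports cystine, the precursor of the cysteine in glutathione, in exchange for glutamate. Slc7a11 had 854 and 921 normalized reads with shSerpine2-1, 1165 and 1087 with shSerpine2-2, 672 and 687 with shSlpi-1 and 643 and 628 with shSlpi-2, against 577 and 596 with shRenilla. All 8 knockdown libraries exceeded both shRenilla libraries, and all 4 Serpine2 libraries exceeded all Slpi libraries. Its fold change was 0.77 (SE 0.06, adjusted p = 6.06e-07) with Serpine2 lowered, the largest of the 35 members, and 0.16 (SE 0.06, adjusted p = 0.0434) with Slpi lowered. The Slpi call was lost when any 1 of 8 libraries was left out (adjusted p up to 0.223, without shRenilla A).

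Slc7a5 (LAT1) imports large neutral amino acids such as leucine, and Slc3a2 is the heavy chain that carries both Slc7a5 and Slc7a11 to the cell surface. Slc7a5 had 4658 and 4501 normalized reads with shSerpine2-1, 4695 and 4757 with shSerpine2-2, 4172 and 3813 with shSlpi-1 and 4741 and 5150.1 with shSlpi-2, against 3262 and 3167 with shRenilla. Slc3a2 had 2857 and 2864 normalized reads with shSerpine2-1, 3152 and 3075 with shSerpine2-2, 2802 and 2716 with shSlpi-1 and 2736 and 2976 with shSlpi-2, against 2478 and 2383 with shRenilla. Both transcripts were above both shRenilla libraries in all 8 knockdown libraries, and each rose with each of the 4 hairpins. For Slc3a2, the call with shSerpine2-1 was lost under 3 of 20 alternatives (adjusted p up to 0.128) and that with shSlpi-1 under 5 of 20 (up to 0.191), among them in both cases the removal of shRenilla B. Slc7a5 had 0.53 (SE 0.05, adjusted p = 3.34e-06) with Serpine2 lowered and 0.47 (SE 0.05, adjusted p = 1.98e-06) with Slpi lowered. Slc3a2 had 0.30 (SE 0.05, adjusted p = 0.000335) and, with Slpi lowered, 0.21 (SE 0.05, adjusted p = 0.00228), a call that was lost without shRenilla B (0.18, adjusted p = 0.053).

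Slc7a1 (CAT1) imports arginine and lysine, and Slc1a4 (ASCT1) carries alanine, serine and cysteine. Slc7a1 had 4552 and 4469 normalized reads with shSerpine2-1, 5049 and 4846 with shSerpine2-2, 4133 and 4215 with shSlpi-1 and 4733 and 4898 with shSlpi-2, against 4111 and 3947 with shRenilla. Slc1a4 had 867 and 838 normalized reads with shSerpine2-1, 961 and 1008 with shSerpine2-2, 874 and 852 with shSlpi-1 and 924 and 914 with shSlpi-2, against 816 and 762 with shRenilla. Both were above shRenilla in all knockdown libraries, with the highest single value in a shSerpine2-2 library. Slc7a1 rose with Serpine2 lowered (0.23, SE 0.04, adjusted p = 0.00107) and with Slpi lowered (0.15, SE 0.04, adjusted p = 0.00808), as did Slc1a4 (0.21, SE 0.06, adjusted p = 0.012, and 0.17, SE 0.06, adjusted p = 0.0229). Without shRenilla B the calls of Slc7a1 with Slpi lowered (0.12, adjusted p = 0.12) and of Slc1a4 with Serpine2 lowered (0.17, adjusted p = 0.189) and with Slpi lowered (0.13, adjusted p = 0.244) were lost. The Slc1a4 calls were also lost without shSerpine2-2 B for Serpine2 (0.20, adjusted p = 0.0517) and without shSlpi-1 A for Slpi (0.17, adjusted p = 0.0573). Without both shSlpi-2 libraries neither passed with Slpi lowered (Slc7a1 0.05, adjusted p = 0.372; Slc1a4 0.13, adjusted p = 0.123).

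Slc6a9 (GlyT1), a glycine transporter, rose with Serpine2 lowered. Slc6a9 had 222 and 212 normalized reads with shSerpine2-1, 351 and 351 with shSerpine2-2, 209.7 and 248 with shSlpi-1 and 206 and 267 with shSlpi-2, against 198 and 202 with shRenilla. Both shSerpine2-2 libraries stood well above all others, so the pooled value (0.46, SE 0.11, adjusted p = 0.00589) averages 0.81 with shSerpine2-2 and 0.12 with shSerpine2-1. It was lost without shRenilla A (0.45, adjusted p = 0.0619) and without shRenilla B (0.48, adjusted p = 0.0711). Slc1a5 (ASCT2), the main glutamine importer of many tumour cells, passed with shSerpine2-2. Slc1a5 had 2043 and 2113 normalized reads with shSerpine2-1, 2306 and 2395 with shSerpine2-2, 2033 and 1874 with shSlpi-1 and 1887 and 2427 with shSlpi-2, against 1937 and 1897 with shRenilla. Its value there was 0.29 (SE 0.08, adjusted p = 0.016), against 0.20 (SE 0.07, adjusted p = 0.0544) over both Serpine2 hairpins, and the call was lost without each of the 4 libraries compared in turn (adjusted p up to 0.116). Slc38a2, the most abundant member, did not pass in either comparison with shRenilla. Slc38a2 had 22931 and 23036 normalized reads with shSerpine2-1, 24955 and 25215 with shSerpine2-2, 22216 and 22514 with shSlpi-1 and 22678 and 21300.2 with shSlpi-2, against 23337 and 24169.9 with shRenilla. Its fold changes were 0.02 (SE 0.04, adjusted p = 0.818) with Serpine2 lowered and -0.10 (SE 0.04, adjusted p = 0.0649) with Slpi lowered, with all 4 Slpi libraries below both shRenilla libraries. Slc7a3, a cationic transporter, ranged over 16.1 to 30.2 normalized reads (-0.23, SE 0.27, adjusted p = 0.573 and, with Slpi lowered, 0.13, SE 0.27, adjusted p = 0.739).

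Of the 7 serine and one-carbon enzymes, 6 rose with Serpine2 lowered and 2 with Slpi lowered, against 10.7% and 16.5% of all genes. The route to serine runs through Phgdh, Psat1 and Psph, which convert a glycolytic intermediate into serine in turn. Phgdh had 756 and 765 normalized reads with shSerpine2-1, 819 and 845 with shSerpine2-2, 663 and 632 with shSlpi-1 and 654 and 782 with shSlpi-2, against 646 and 619 with shRenilla. Psat1 had 11274 and 11809 normalized reads with shSerpine2-1, 11947 and 12451 with shSerpine2-2, 9333 and 9503 with shSlpi-1 and 9261 and 9855 with shSlpi-2, against 9537 and 9293 with shRenilla. Psph had 864 and 954 normalized reads with shSerpine2-1, 1078 and 1197 with shSerpine2-2, 875 and 918 with shSlpi-1 and 965 and 910.0 with shSlpi-2, against 644 and 768 with shRenilla. For Psat1, all 4 Serpine2 libraries were above all 6 others, whereas the Slpi libraries overlapped shRenilla; Psph was above shRenilla in all 8 knockdown libraries. Phgdh had 0.33 (SE 0.07, adjusted p = 0.00313) with Serpine2 lowered (without shRenilla B, 0.30, adjusted p = 0.0766) and 0.11 (SE 0.07, adjusted p = 0.26) with Slpi lowered. Psat1 had 0.33 (SE 0.04, adjusted p = 6.97e-05) with Serpine2 lowered and 0.01 (SE 0.04, adjusted p = 0.867) with Slpi lowered. Psph had 0.53 (SE 0.07, adjusted p = 0.000135) and, with Slpi lowered, 0.38 (SE 0.07, adjusted p = 0.00075).

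Mitochondrial one-carbon metabolism uses serine through Shmt2, which makes glycine and a folate-bound one-carbon unit, and then Mthfd2 and Mthfd1l, which oxidize that unit and release it as formate. Shmt2 had 4355 and 4184 normalized reads with shSerpine2-1, 4447 and 4386 with shSerpine2-2, 3747 and 3635 with shSlpi-1 and 4035 and 4429.5 with shSlpi-2, against 3517 and 3758 with shRenilla. Mthfd2 had 1177 and 1154 normalized reads with shSerpine2-1, 1353 and 1379 with shSerpine2-2, 1061 and 1087 with shSlpi-1 and 1210.2 and 1086 with shSlpi-2, against 878 and 813 with shRenilla. Mthfd1l had 2266 and 2294 normalized reads with shSerpine2-1, 2415 and 2305 with shSerpine2-2, 2176 and 2129 with shSlpi-1 and 2018 and 1909 with shSlpi-2, against 1889 and 1908 with shRenilla. Mthfd2 and Mthfd1l were above both shRenilla libraries in all 8 knockdown libraries, and Shmt2 was above them in the 4 Serpine2 libraries. Mthfd2 had 0.58 (SE 0.06, adjusted p = 7.46e-06) with Serpine2 lowered and 0.39 (SE 0.06, adjusted p = 6.65e-05) with Slpi lowered. Shmt2 had 0.26 (SE 0.05, adjusted p = 0.0013) and, with Slpi lowered, 0.12 (SE 0.05, adjusted p = 0.0595). Mthfd1l had 0.29 (SE 0.05, adjusted p = 0.000383) and, with Slpi lowered, 0.11 (SE 0.05, adjusted p = 0.0614).

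Aldh1l2, a mitochondrial enzyme that oxidizes formyl-folate, was the only one of the 7 that did not pass with Serpine2 lowered. Aldh1l2 had 134 and 136 normalized reads with shSerpine2-1, 151 and 147 with shSerpine2-2, 109 and 156 with shSlpi-1 and 76.4 and 80.5 with shSlpi-2, against 107 and 116 with shRenilla. The shSlpi-2 libraries were the lowest, and the fold change was 0.34 (SE 0.14, adjusted p = 0.0896) with Serpine2 lowered, -0.50 (SE 0.16, adjusted p = 0.0183) with shSlpi-2 and 0.22 (SE 0.16, adjusted p = 0.378) with shSlpi-1. The shSlpi-2 call was lost without either shRenilla library (adjusted p up to 0.111).

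Among the 5 other enzymes tested, Asns and Gpt2 rose in both comparisons and Aldh18a1 with Serpine2 lowered. The shares of all genes were 10.7% with Serpine2 lowered and 16.5% with Slpi lowered. Asns makes asparagine from aspartate and glutamine and is a classic reporter of the amino acid response; Gpt2 is the mitochondrial alanine aminotransferase. Asns had 2061 and 2176 normalized reads with shSerpine2-1, 2310.1 and 2352 with shSerpine2-2, 1878 and 1975 with shSlpi-1 and 1821 and 1915 with shSlpi-2, against 1452 and 1611 with shRenilla. Gpt2 had 293 and 284 normalized reads with shSerpine2-1, 360.0 and 308 with shSerpine2-2, 223 and 251 with shSlpi-1 and 253 and 237 with shSlpi-2, against 183 and 196 with shRenilla. In both genes the Serpine2 libraries were highest, the Slpi libraries intermediate and the shRenilla libraries lowest, with no overlap between these sets. Asns had 0.54 (SE 0.05, adjusted p = 6.48e-06) with Serpine2 lowered and 0.31 (SE 0.05, adjusted p = 0.000251) with Slpi lowered. Gpt2 had 0.71 (SE 0.09, adjusted p = 0.000118) and, with Slpi lowered, 0.34 (SE 0.09, adjusted p = 0.0101), a call that was lost without shRenilla A (0.29, adjusted p = 0.108).

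Aldh18a1 and Pycr1 make proline from glutamate. Aldh18a1 had 1036 and 1105 normalized reads with shSerpine2-1, 1135 and 1139 with shSerpine2-2, 933 and 1010.3 with shSlpi-1 and 915 and 935 with shSlpi-2, against 1002 and 825 with shRenilla. The 2 shRenilla libraries of Aldh18a1 were far apart, and all Serpine2 libraries were above both. Its fold changes were 0.28 (SE 0.07, adjusted p = 0.00939) with Serpine2 lowered, a call that was lost without shRenilla B (0.14, adjusted p = 0.287), and 0.06 (SE 0.07, adjusted p = 0.543) with Slpi lowered. Pycr1 was low, at 40.0 to 51.8 normalized reads, and flat (0.07, SE 0.18, adjusted p = 0.834 and, with Slpi lowered, 0.05, SE 0.18, adjusted p = 0.859). Cth, which with Cbs makes cysteine from homocysteine, fell with shSlpi-2 (-0.35, SE 0.13, adjusted p = 0.0415). That call was lost under 10 of 20 alternatives (adjusted p up to 0.22), among them limma voom and the removal of either shRenilla or either shSlpi-2 library. Cth had 117 and 110.3 normalized reads with shSerpine2-1, 140.5 and 152 with shSerpine2-2, 128 and 129 with shSlpi-1 and 105 and 103 with shSlpi-2, against 126 and 141 with shRenilla. Both shSlpi-2 libraries were below all others, and the pooled values were -0.05 (SE 0.12, adjusted p = 0.79) with Serpine2 lowered and -0.20 (SE 0.12, adjusted p = 0.185) with Slpi lowered.

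The Serpine2 hairpins were then set against the Slpi hairpins. Serpine2 was also lower than in shRenilla with shSlpi-1 (-1.26) and shSlpi-2 (-0.96), and Slpi with shSerpine2-1 (-1.76). The comparison is thus between sets of hairpins. Of 35 members, 14 were higher with the Serpine2 hairpins than with the Slpi hairpins and 0 lower, while 10.3% of all genes tested were higher and 7.21% lower (limma, Benjamini-Hochberg). The median difference was 0.15 for the members and 0.00 for all genes. In 8 members all 4 Serpine2 libraries lay above all 4 Slpi libraries, as in 5.85% of all genes, and in 0 members all lay below, as in 2.98% of all genes. The 8 were Chac1, Slc7a11, Slc38a2, Psat1, Mthfd1l, Asns, Gpt2 and Aldh18a1. Without shSerpine2-1 B, shSerpine2-2 A or shSerpine2-2 B, in each case 9 members were higher, without both shSlpi-2 libraries 18, and with hairpin lines as units 0 members and 0 genes passed, with 5 members at an unadjusted p under 0.05, all higher, against 3.41% of all genes.

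The largest differences between the targets were those of Slc7a11 (0.60, SE 0.05, adjusted p = 5.74e-07), Chac1 (0.51, SE 0.07, adjusted p = 0.000136) and Aldh1l2 (0.48, SE 0.11, adjusted p = 0.0078), followed by Gpt2 (0.36, SE 0.08, adjusted p = 0.00434). The Aldh1l2 difference rests on shSlpi-2: without both shSlpi-2 libraries it was 0.12 (adjusted p = 0.58) and did not pass. Serine and one-carbon enzymes made up 6 of the 14. Psat1 was higher with the Serpine2 hairpins by 0.32 (SE 0.03, adjusted p = 1.04e-05), Phgdh by 0.23 (SE 0.06, adjusted p = 0.0119), Mthfd2 by 0.19 (SE 0.05, adjusted p = 0.0119), Mthfd1l by 0.17 (SE 0.04, adjusted p = 0.00443) and Shmt2 by 0.14 (SE 0.04, adjusted p = 0.0222). Psph, the member of the serine route that rose with all 4 hairpins, did not pass (0.15, SE 0.06, adjusted p = 0.0971). Against shRenilla, its call was lost under 3 of 20 alternatives with shSerpine2-1 and 3 of 20 with shSlpi-1. Both losses included the fit without a filter on low counts. Without shRenilla A the Psph values were 0.24 with shSerpine2-1 and 0.22 with shSlpi-1. Asns (0.23, SE 0.04, adjusted p = 0.00178) and Aldh18a1 (0.22, SE 0.06, adjusted p = 0.014) were also higher with the Serpine2 hairpins. Cebpb (0.35, SE 0.10, adjusted p = 0.0242), Stc2 (0.22, SE 0.06, adjusted p = 0.0131) and Slc38a2 (0.12, SE 0.03, adjusted p = 0.0226) were higher as well. Neither these nor Aldh1l2 had risen against shRenilla with Serpine2 lowered. For Cebpb the difference rests on shSerpine2-2, at 195 and 214 normalized reads. Its shSerpine2-1 libraries (145 and 123) lay within the range of the Slpi libraries (119.7 to 149.6).

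Atf4 mRNA did not follow this order. Its difference between the targets was -0.05 (SE 0.05, adjusted p = 0.515), and Slc7a5 (0.07, SE 0.04, adjusted p = 0.251) and Jdp2 (0.05, SE 0.10, adjusted p = 0.757) did not pass either. The interval of 2 standard errors around the Atf4 difference spans -0.14 to 0.04. Of the 14 calls, 7 were kept whichever single library was left out, those of Slc7a11, Chac1, Aldh1l2, Gpt2, Psat1, Asns and Mthfd1l. Without both shSlpi-2 libraries 11 of the 14 still passed, and those lost were Aldh1l2, Mthfd1l (0.11, adjusted p = 0.0572) and Stc2 (0.05, adjusted p = 0.626). The 7 calls not kept in every case were lost without at least 1 single library. For Cebpb the adjusted p rose to 0.113 without shSerpine2-1 A, for Slc38a2 to 0.0927 without shSerpine2-1 B, and for Shmt2 to 0.11 without shSerpine2-1 A. For Stc2 it rose to 0.0829 without shSerpine2-2 A, for Aldh18a1 to 0.0751 without shSerpine2-1 B, for Mthfd2 to 0.0592 without shSerpine2-1 A, and for Phgdh to 0.0536 without shSerpine2-2 B.

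**Figure D5:**
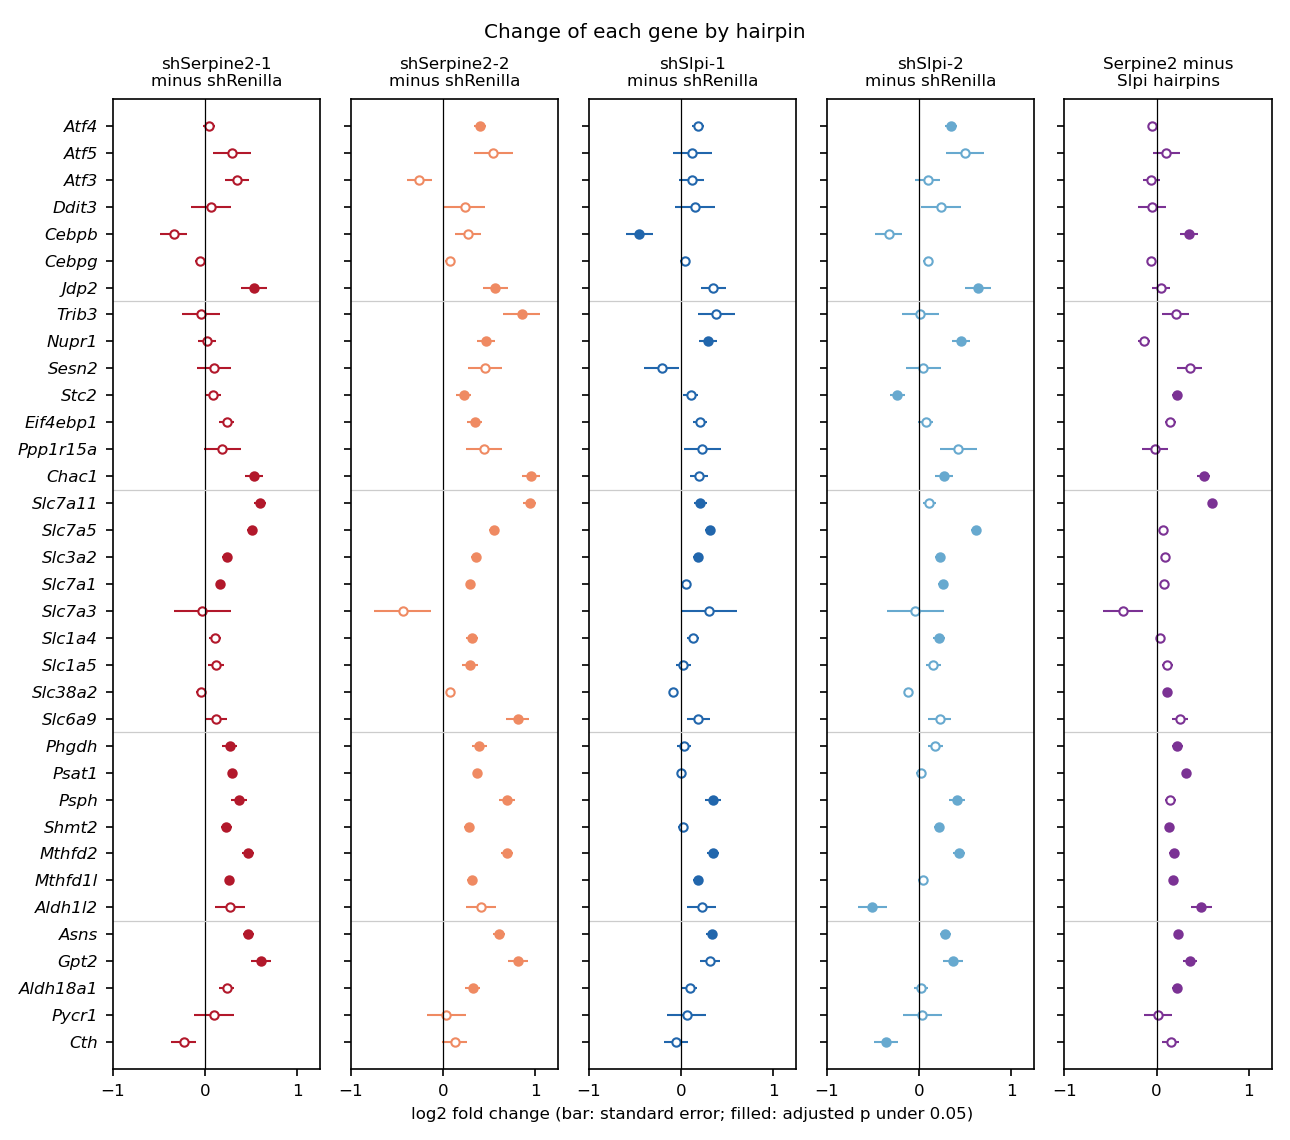
Log2 fold change (x axis) of each tested member (y axis) for each hairpin against shRenilla and for Serpine2 against Slpi hairpins; bars are 1 standard error and filled points have an adjusted p under 0.05. The 5 members filled in all 4 hairpin panels are Slc7a5, Slc3a2, Psph, Mthfd2 and Asns, and Slc7a11 has the largest difference between the targets (0.60).

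The hairpins of each target were then compared. With shSerpine2-1, 14 members rose and 0 fell (5.09% and 5.38% of all genes). With shSerpine2-2, 23 rose and 0 fell (14.2% and 13.4%, or 27.5% in either direction). The 14 members that rose with shSerpine2-1 all rose with shSerpine2-2, in comparisons that share shRenilla, and the 9 that passed with shSerpine2-2 alone were Atf4, Trib3, Nupr1, Stc2, Eif4ebp1, Slc1a4, Slc1a5, Slc6a9 and Aldh18a1. More members rose with the weaker knockdown. Serpine2 stood at 489 and 514 normalized reads with shSerpine2-2 and at 128 and 139 with shSerpine2-1, against 3256 and 3145 with shRenilla. The counts for shSerpine2-1 were 9 without shRenilla A, 9 without shSerpine2-1 A and 7 without shSerpine2-1 B. Whichever single library was left out, 6 of the 14 calls were kept with shSerpine2-1 and 17 of the 23 with shSerpine2-2.

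Tested directly, shSerpine2-1 against shSerpine2-2, 1 member was higher and 10 were lower, against 6.98% and 7.69% of all genes. The 10 lower with shSerpine2-1 were led by Trib3 (-0.90, SE 0.20, adjusted p = 0.00758), Slc6a9 (-0.69, SE 0.12, adjusted p = 0.00181) and Cebpb (-0.61, SE 0.14, adjusted p = 0.0097), and Atf4 was among them (-0.36, SE 0.07, adjusted p = 0.0019). The one higher was Atf3 (0.60, SE 0.13, adjusted p = 0.00622). By contrast Jdp2 (-0.03, SE 0.14, adjusted p = 0.896), Slc7a5 (-0.05, SE 0.06, adjusted p = 0.622), Psat1 (-0.08, SE 0.05, adjusted p = 0.283), Shmt2 (-0.05, SE 0.05, adjusted p = 0.587) and Mthfd1l (-0.05, SE 0.05, adjusted p = 0.569) rose with both hairpins and did not pass in the direct test. Asns, Gpt2, Phgdh, Slc7a1 and Slc3a2 likewise rose with both and did not pass, with lower means in shSerpine2-1 than in shSerpine2-2. The median difference was -0.14 for the members and -0.01 for all genes. The count was 19 when only the compared libraries entered the fit, and it was 5 without either shSerpine2-1 library, 6 without shSerpine2-2 A and 2 without shSerpine2-2 B. Of the 11 calls, 1, that of Slc6a9, was kept whichever single library was left out.

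With shSlpi-1, 8 members rose and 1 fell, against 7.65% and 9.88% of all genes. With shSlpi-2, 13 rose and 3 fell, against 20.4% and 21.9%, or 42.4% in either direction, and scaling by library totals gave 10 and 5 there. The members that rose with both were Slc7a5, Slc3a2, Nupr1, Psph, Mthfd2 and Asns, and those that fell with shSlpi-2 were Aldh1l2, Cth and Stc2. All 3 falls were lost without shRenilla A, where 10 rose and 0 fell, and without shRenilla B, where 13 rose and 0 fell. For shSlpi-1 it was 3 without shRenilla A, 4 without shRenilla B, 5 without shSlpi-1 A, 3 without shSlpi-1 B, and 14 without shSlpi-2 A. Whichever single library was left out, 3 of the 9 calls were kept with shSlpi-1 and 9 of the 16 with shSlpi-2.

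Set directly against shSlpi-2, shSlpi-1 was higher for 2 members and lower for 3 (13.7% and 12.3% of all genes, 26.1% in all), and for 7 and 1 with scaling by library totals. The higher members were Aldh1l2 (0.73, SE 0.16, adjusted p = 0.0036) and Stc2 (0.34, SE 0.08, adjusted p = 0.00607), and the lower ones Slc7a5 (-0.31, SE 0.06, adjusted p = 0.000767), Slc7a1 (-0.21, SE 0.05, adjusted p = 0.00485) and Shmt2 (-0.20, SE 0.05, adjusted p = 0.0145). The count was 1 when only the 4 compared libraries entered the fit, 3 without shSlpi-1 B and 10 without shSlpi-2 A.

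Members with and without the element in a promoter window rose with Serpine2 lowered. Of the 9 members with TGATGNAA in a window, 6 rose (Jdp2, Nupr1, Chac1, Slc7a11, Slc1a4 and Asns), and of the 20 tested members with a window and no match, 12 rose. With Slpi lowered the counts were 6 of 9, the same 6 genes, and 6 of 20. With shSerpine2-2, they were 7 of 9, the seventh being Trib3, and 13 of 20. Atf3 and Pycr1 hold the element and did not rise with any hairpin, while Psat1, Mthfd2, Gpt2 and Slc6a9 rose with Serpine2 lowered and have no match in these windows. Of all genes tested, 10.7% rose with Serpine2 lowered, 16.5% with Slpi lowered and 14.2% with shSerpine2-2. The Slpi calls of Jdp2, Chac1, Slc7a11 and Slc1a4 were each lost in a fit without some single library. So were those of Slc3a2, Slc7a1 and Gpt2, which have no match in these windows. The counts by element are a description.

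The wider amino acid response was followed in gene lists related to the members. The cytosolic aminoacyl-tRNA synthetases, which charge tRNAs with amino acids and of which many are Atf4 targets, changed in 1 direction in both comparisons. Of 20 tested, 17 rose and 0 fell with Serpine2 lowered, and 14 rose and 0 fell with Slpi lowered, with median log2 fold changes of 0.23 in both. Of all genes tested, 10.7% rose and 10.8% fell with Serpine2 lowered, and 16.5% rose and 18.3% fell with Slpi lowered. Like the members, the related lists were chosen with earlier results of these data known. Aars, the alanyl-tRNA synthetase, rose by 0.54 with Serpine2 lowered and 0.42 with Slpi lowered. The asparaginyl enzyme Nars rose by 0.45 and, with Slpi lowered, 0.31. The valyl enzyme Vars rose by 0.41 and, with Slpi lowered, 0.39, and the tyrosyl enzyme Yars by 0.45 and, with Slpi lowered, 0.31. Between the targets, 7 synthetases were higher with the Serpine2 hairpins and 1 was lower, against 10.3% and 7.21% of all genes.

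Lists further from Atf4 were mixed, and many of their counts lay near the shares over all genes (10.7% higher and 10.8% lower with Serpine2 lowered, 16.5% and 18.3% with Slpi lowered). Of 17 genes of the eIF2 kinases and eIF2 machinery, 5 rose and 2 fell with Serpine2 lowered and 6 rose and 2 fell with Slpi lowered, so that the falls were near or below those shares. Ppp1r15b, the constitutive eIF2 phosphatase subunit, rose (0.29, and 0.33 with Slpi lowered), as did Eif2b5, a subunit of the exchange factor of eIF2 (0.34, and 0.28 with Slpi lowered). Eif2s1, the subunit of eIF2 that is phosphorylated, fell (-0.15, and -0.33 with Slpi lowered), as did Eif2a, a separate initiation factor (-0.16, and -0.30 with Slpi lowered). Of 25 endoplasmic reticulum chaperones and unfolded protein response genes, 7 rose and 3 fell with Serpine2 lowered and 9 rose and 4 fell with Slpi lowered, and here too the falls were near those shares. The chaperone Calr rose (0.24, and 0.30 with Slpi lowered), as did the co-chaperone Dnajb11 (0.20, and 0.42 with Slpi lowered), and the oxidase Ero1l fell (-0.40, and -0.42 with Slpi lowered). Manf, a secreted protein of the reticulum, rose with Slpi lowered (0.45).

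Of 15 other known Atf4 targets, 5 rose and 2 fell with Serpine2 lowered (10.7% and 10.8% of all genes), and 3 rose and 5 fell with Slpi lowered (16.5% and 18.3%). The 2 falls and the 3 rises were near those shares. The median log2 fold change of the 15 was -0.013 with Serpine2 lowered and -0.005 with Slpi lowered. Over all genes tested it was -0.001 and -0.006. With Serpine2 lowered 6 of the 15 had a positive value, and with Slpi lowered 7. Sqstm1, an autophagy receptor, rose in both comparisons (0.41, and 0.33 with Slpi lowered). Klhl24 (-0.55, and -0.95 with Slpi lowered) and Ndrg1 (-0.26, and -0.31 with Slpi lowered) fell in both, and the angiogenic factor Vegfa fell with Slpi lowered (-0.39). Of 18 genes of mTORC1 and nutrient sensing, 0 rose and 3 fell with Serpine2 lowered, and 1 rose and 7 fell with Slpi lowered, to be read against the same shares of all genes. The mTOR inhibitor Deptor fell (-0.27, and -0.85 with Slpi lowered), as did Sesn3, a relative of Sesn2 (-0.40, and -0.48 with Slpi lowered). The kinase Mtor (-0.28) and its partner Rictor (-0.33) fell with Slpi lowered.

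Of 22 other serine, folate and methionine cycle enzymes, 6 rose and 2 fell with Serpine2 lowered (10.7% and 10.8% of all genes), and 5 rose and 3 fell with Slpi lowered (16.5% and 18.3%). All but the 6 rises were near those shares. Gcat, which makes glycine from a threonine product, rose (0.49, and 0.60 with Slpi lowered), as did the glycine cleavage protein Gcsh (0.22, and 0.32 with Slpi lowered) and the cytosolic folate enzyme Mthfd1 (0.30, and 0.28 with Slpi lowered). Mat2a, which makes S-adenosylmethionine, fell (-0.14, and -0.19 with Slpi lowered). Of 18 enzymes of glutamine, proline, aspartate and glutathione, 5 rose and 1 fell with Serpine2 lowered and 3 rose and 5 fell with Slpi lowered, the 3 rises being at the share of all genes. Ggct, which acts in glutathione breakdown, fell in both (-0.27, and -0.33 with Slpi lowered). Gclm, the modifier subunit of the first enzyme of glutathione synthesis, and the glutamate dehydrogenase Glud1 fell with Slpi lowered (-0.33 and -0.24).

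Of 13 other amino acid transporters, 2 rose and 0 fell with Serpine2 lowered (10.7% and 10.8% of all genes), and 4 rose and 2 fell with Slpi lowered (16.5% and 18.3%), with the 2 rises and the 2 falls near those shares. Slc38a1 (0.20, and 0.17 with Slpi lowered) and Slc38a10 (0.22, and 0.29 with Slpi lowered) rose in both. With Slpi lowered, the taurine transporter Slc6a6 rose (0.13) and Slc43a2 fell (-0.50). All of these calls come from the fit over all 12299 genes.

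Some member values have limits from the annotation. Exons of Atf5, Cebpb, Cebpg, Jdp2, Ppp1r15a, Slc6a9, Psph, Shmt2 and Aldh1l2 overlap those of a gene on the opposite strand, such as Cct6a for Psph and Ndufa4l2 for Shmt2, and Cebpg also one on its own strand. Whether counting used strand is not stated, so reads of such pairs cannot be told apart. Phgdh has an annotated pseudogene, and its reads may be shared with it.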

How the data were processed

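Per library, 100 ng of DNase-treated total RNA was amplified with an Ovation kit, and cDNA fragments of about 200 bp were read for 76 bases, per the labels' protocols. The authors used Bowtie2, HTSeq and DESeq with build mm10, per the submitters' processing notes; versions, settings, annotation and strand use were not given in the sources used here. The deposited table holds log2 values with a floor of 6.733366499, which is how a variance-stabilizing transformation ends at a count of 0; no label states this step, and it was inferred from the values. Inverting it gave normalized read counts, and 100% of values under 2000 reads came out as whole reads within 0.01. A count of 0 allows up to 3 reads, or 2.30 to 3.48 normalized reads, which covers counting error only.

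Tests used log2(normalized count + 1), with limma 3.58.1 (R 4.3.3, eBayes with a trend), on 12299 genes with a mean of at least 10, in 1 fit of 5 group means over 10 libraries. Fold changes on this scale understate changes of low genes. P-values are two-sided and Benjamini-Hochberg adjusted over all 12299 genes; "rose" and "fell" mean an adjusted p under 0.05. All groups share 1 estimate of the spread, which includes shSlpi-2, whose A and B differed most. Tables and figures used Python 3.11.15 with pandas 2.3.3, numpy 2.4.6 and matplotlib 3.10.9.

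The members and the related gene lists were chosen with earlier results of these data known. All members are named; those that passed in any comparison, and Atf4, Ddit3, Atf3, Trib3 and Cebpb in any case, are given library by library, and each related list by up to 4 passing genes with the smallest p. One such gene is not reported here. Alternatives were other pseudocounts (0.5 and 5), no filter or a mean of at least 50, quantile normalization, library totals, the deposited values as they stand, limma voom on recovered reads, only the compared libraries, the letters as a block, hairpin lines as units, and leaving out each library or both shSlpi-2 libraries.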

Additional observations from a re-analysis of the deposited data

Results flagged for a closer look

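Differences between hairpins of the same target were tested directly with limma over all genes tested, and 16 passed. Of 35 members, 11 (31.4%) passed between the Serpine2 hairpins, against 14.7% of all genes, and 5 (14.3%) between the Slpi hairpins, below the 26.1% of all genes. For shSerpine2-1 minus shSerpine2-2, the log2 difference was 0.60 for Atf3, -0.36 for Atf4, -0.61 for Cebpb, -0.90 for Trib3 and -0.45 for Nupr1. It was -0.43 for Chac1, -0.34 for Slc7a11, -0.21 for Slc1a4, -0.69 for Slc6a9, -0.23 for Mthfd2 and -0.32 for Psph. Against shRenilla, neither hairpin passed the test for Atf3 (0.35 with shSerpine2-1 and -0.25 with shSerpine2-2) or for Cebpb (-0.34 and 0.27). For shSlpi-1 minus shSlpi-2, the difference was 0.34 for Stc2, -0.31 for Slc7a5, -0.21 for Slc7a1, -0.20 for Shmt2 and 0.73 for Aldh1l2. The share of Rn45s reads and the difference between libraries A and B were highest in shSlpi-2, and their part in these values was not tested.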

How the results depend on the processing

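No called member turned its direction under any alternative. Without a filter on low counts the members changed with shSerpine2-1 were 9 (14 as reported) and with shSlpi-1 4 (9 as reported). Scaling by library totals gave 8 members for shSlpi-1 against shSlpi-2 (5 as reported), where it also moved the median of all genes by 0.10. When a fit held just the libraries being compared, shSerpine2-1 against shSerpine2-2 gave 19 (11 as reported) and shSlpi-1 against shSlpi-2 gave 1. With hairpin lines as units, both targets against shRenilla and the comparison between targets gave 0. Leaving out 1 library at a time gave 7 to 16 changed members for shSerpine2-1, 19 to 27 for shSerpine2-2, 12 to 22 for the Serpine2 hairpins, 3 to 14 for shSlpi-1, 10 to 19 for shSlpi-2 and 8 to 20 for the Slpi hairpins. It gave 9 to 20 between the targets, 2 to 16 between the Serpine2 hairpins and 3 to 10 between the Slpi hairpins. Limma voom on recovered reads kept 118 of 126 calls over the 9 comparisons. The cause of these shifts was not tested.

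The correlation of A-minus-B differences between groups was -0.20 to 0.17 over 10537 genes. Such correlations cannot show whether the letters A and B mark a shared culture or run. With the letter as a block, 20 members changed with the Serpine2 hairpins, 13 with the Slpi hairpins and 15 between the targets, and 122 of 126 calls were kept, 4 lost and 2 gained. Precision is limited by 2 libraries a group and by 1 control line, shared by all comparisons with shRenilla.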

Other observations

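Summed over the 36 members, normalized reads per library were 71827 and 72781 with shSerpine2-1, 79026 and 79896 with shSerpine2-2, 67435 and 67294 with shSlpi-1 and 68878 and 70897 with shSlpi-2, against 64751 and 65518 with shRenilla. All 8 knockdown libraries lay above both shRenilla libraries, and the 4 Serpine2 libraries lay above the 4 Slpi libraries. Such a sum weights each member by its reads, so abundant members count most. Slc38a2 alone had 21300 to 25215 normalized reads per library. It did not pass with either target lowered, and it was higher with the Serpine2 than the Slpi hairpins (0.12).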
